A study of Arabidopsis thaliana with 40 samples.

Results

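Untreated leaves of the Arabidopsis thaliana mutant aox1a were compared with untreated leaves of the Columbia wild type (Col0) that the labels name as the control for aox1a. The comparison rests on 7 of the 40 arrays of the series: 2 arrays of aox1a line 1, 2 of aox1a line 2 and 3 of wild type, taken by their labels, with the lines given equal weight. All 7 came from plants 4 weeks old that were kept for 4 d more in the standard growth room, at 22°C with 16 h of light at 100 µE. The other groups of the series are rpoTmp lines, an aox1a:rpoTmp double mutant and their own wild types, each also grown under moderate light with drought (MLD), which is stronger light at about 350 µE with no water. By the age given with each sample, the rpoTmp lines were 5 weeks old and their wild type 4, and the untreated double mutant and its wild type were 5 weeks old and their MLD groups 4. The source field gives 4 weeks for every sample and the treatment notes give older plants for the double mutant, so the ages outside the aox1a set are uncertain. The labels name the aox1a lines by number only and do not describe the alleles or say whether arrays of a group came from separate plants, so the p-values measure the spread between these samples.

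The alternative oxidase sits in the inner mitochondrial membrane of plants. It passes electrons from ubiquinol straight to oxygen, bypasses proton pumping by the cytochrome pathway, and so lets respiration go on when that pathway is full or blocked. AOX1A is the form best known from leaves, and its transcript is a standard marker of signalling from stressed mitochondria to the nucleus.

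Levels are given as log2 of the deposited intensity, where 1 unit is a doubling, and changes as aox1a minus wild type with the standard error (SE) of the fit. A probe set was called at a Benjamini-Hochberg adjusted p under 0.05 over the 22746 probe sets tested. The table of probe sets used pairs none with AOX1A, so the lesion was not checked on the arrays by gene name. Wild-type replicate 2 stood apart from the other untreated wild-type arrays: 1709 probe sets (7.51%) lay over 1 log2 unit from the mean of replicates 1 and 3, against 126 between replicates 1 and 3. On the first principal component of the 14 aox1a-set arrays, which holds 71.9% of their variance, the untreated mutant arrays lay between -92.9 and -68.7. The MLD mutant arrays lay between 74.0 and 91.4, and untreated wild-type replicates 1 and 3 at -55.9 and -44.4. Untreated wild-type replicate 2 lay at 19.5, within the range of the wild-type MLD arrays (6.57 to 31.1). Line 2 replicate 1 stood apart in another way, with the largest 3′ minus 5′ log2 differences of the 7 arrays at control probe sets. These were 3.16 for actin, against 1.38 to 2.13 on the others, and 3.75 and 0.63 for the GAPDH pairs. The other arrays gave 2.72 to 3.18 and -0.40 to 0.04 for those pairs. The part of RNA quality in the calls was not tested.

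**Figure D1:**
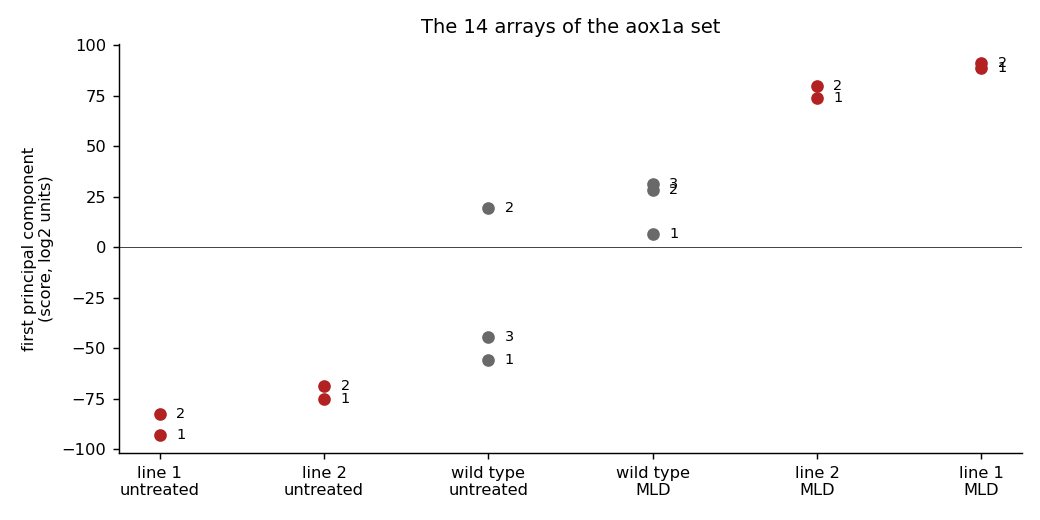
First principal component score (log2 units) of each of the 14 arrays of the aox1a set, by group, with the replicate number beside each point. Untreated wild-type replicate 2 (19.5) lies among the wild-type MLD arrays, while replicates 1 and 3 (-55.9 and -44.4) lie nearer the 4 untreated mutant arrays.

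The leaf markers RCA, SBPASE and PRK were strongly expressed, and their summed intensity lay between 37190 and 41897 on all 7 arrays. The root markers PYK10 and EXPA7 summed to between 9.51 and 9.79, at the floor of the arrays. FMA, a guard cell gene, read 60.0 to 76.0 in wild type, 53.8 to 59.5 in line 1 and 45.4 to 59.3 in line 2, and its change was not called (adjusted p = 0.177). In whole leaves, fewer cells of a type and less RNA per cell cannot be told apart.

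With the lines averaged, 1557 probe sets were called (6.85%), 745 higher in aox1a (3.28%) and 812 lower (3.57%). Without wild-type replicate 2, 208 were called (0.914%), 117 higher and 91 lower, and 184 of them were among the 1557 (0.809% of all). Line 1 alone gave 936 calls (4.12%), line 2 alone 11 (0.0484%), and 8 probe sets were called in both. A change is described here as held if it was called with the lines averaged, called again without replicate 2, and had the same sign with an unadjusted p under 0.05 in each line, with and without replicate 2. By this rule 174 probe sets held (0.765%), 94 higher and 80 lower, and all 174 separated the 4 mutant arrays from the 3 wild-type arrays, as 31.3% of all probe sets did. The rule used these same arrays, so the separation follows largely from the selection and is no added support.

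The held probe sets name 97 single genes (0.726% of the 13355 tested), 58 higher (0.434%) and 39 lower (0.292%), with a median change of 0.97 log2 units among the rises and 0.86 among the falls. Their adjusted p-values draw on the spread of all 14 arrays, MLD groups included. The SEs and p-values count the 2 arrays of a line as separate samples. With 1 value per line, 25 probe sets were called. When the 7 untreated arrays were fitted alone, no probe set was called by limma (smallest adjusted p 0.0944), and 5233 had an unadjusted p under 0.05 against 7146 in the fit of 14. Wild-type replicate 2 was the lowest wild-type array for 70 of the 94 held rises and the highest for 74 of the 80 held falls. Among calls lost without it, it was the lowest for 384 of 644 rises and the highest for 653 of 729 falls. The share over all probe sets was not taken, so these counts are a description. Values without wild-type replicate 2 are given beside many of the genes, and by the rule each of the 97 was called again without it.

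**Figure D2:**
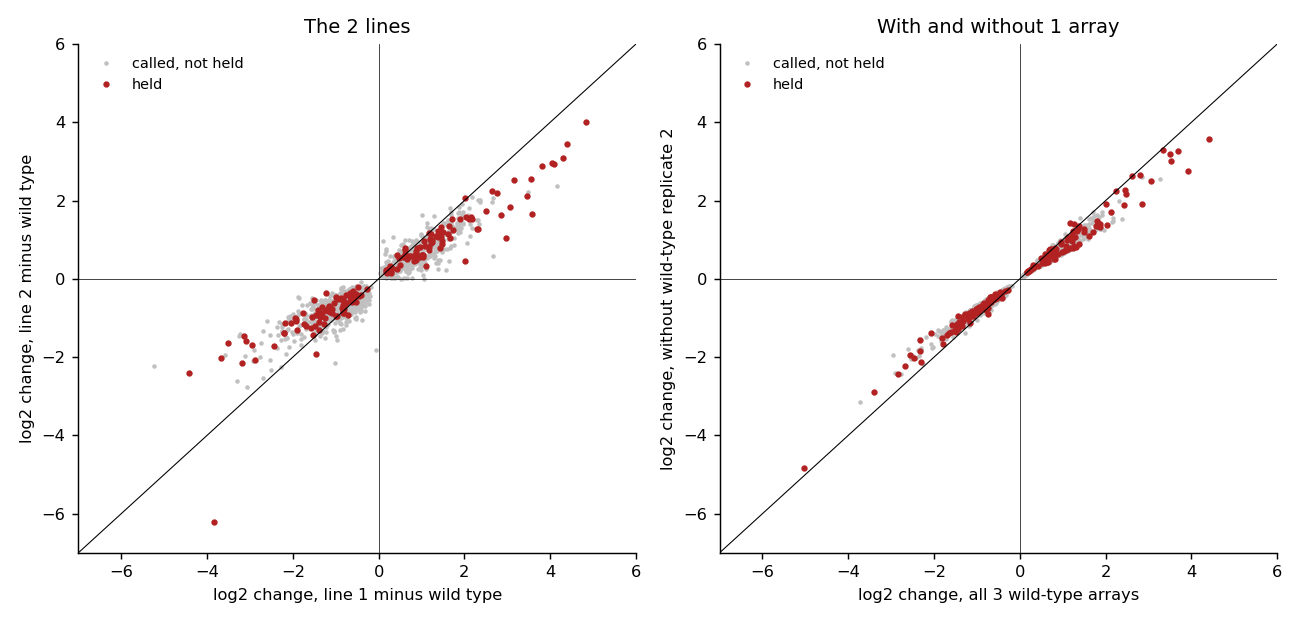
Each point is 1 of the 1557 called probe sets, with the 174 held ones in red. The left panel plots the log2 change of line 2 against that of line 1, and the right panel the change without wild-type replicate 2 against the change with all 3 wild-type arrays; the diagonal marks equal changes. Most held points lie nearer 0 in line 2 than in line 1.

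The largest change of all was a fall at probe set 258452_at, which the table used pairs with no gene and which was singled out after its values were seen. Whether it reads AOX1A, and so the lesion itself, was not settled with the tables used. 258452_at read 9.43, 10.05 and 9.51 in wild-type replicates 1, 2 and 3, 4.94 and 6.73 in line 1, and 4.29 and 2.60 in line 2. All 4 mutant arrays lay far below the 3 wild-type arrays, and wild-type replicate 2 was the highest of the 3. The change averaged -5.03 ± 0.56 (adjusted p = 0.00906), a size that is not exact because the lowest mutant array lay near the floor, with -3.83 in line 1 and -6.22 in line 2. It was called with each of the 7 arrays left out in turn (adjusted p = 0.00478 to 0.0358). Under MLD, on separate arrays, the same probe set read 5.73 ± 1.33 (SD, n = 4) in aox1a and 10.43 ± 0.16 (SD, n = 3) in wild type, a change of -4.70 ± 0.56 (adjusted p = 0.00190). In the untreated double set both genotypes read low, with means of 5.87 in the double mutant and 5.96 in its wild type, and the difference of -0.10 ± 0.42 was not called (adjusted p = 0.949).

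Of the gene lists, the CC-type glutaredoxins held the most called rises. They are a plant class of small glutathione-dependent redox proteins that bind TGA transcription factors, with members known to respond to nitrate and cytokinin. The list was written from general knowledge, but with earlier results of these data known. It also lacks AT4G33040 and AT5G11930, which fell, so its counts are a description and no test of the family. Of 19 genes in the list, 15 had a single-gene probe set. Of the 15, 6 were called higher and 0 lower, and 5 of the rises held. Over all single genes, 6.69% were called, 3.78% higher and 2.91% lower. The median change of the 15 was 1.23 (0.95 without wild-type replicate 2), beside 0.02 over all probe sets.

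Of the 5 held rises, 4 belong to a run of 5 adjacent genes on chromosome 4, AT4G15660 to AT4G15700, of which AT4G15670 has no single-gene probe set. AT4G15700 read 3.22, 2.89 and 2.84 in wild-type replicates 1, 2 and 3, 7.06 and 6.52 in line 1, and 6.26 and 5.47 in line 2. The wild-type arrays lay near the floor and agreed among themselves, and every mutant array was well above them. The rise was 3.34 ± 0.20 on the log2 scale (adjusted p = 0.000313), and it was called in line 1 (3.80, adjusted p = 0.000383) and in line 2 (2.88, adjusted p = 0.00516) taken alone. AT4G15690 read 3.53, 2.30 and 3.66 in wild-type replicates 1, 2 and 3, 7.90 and 7.03 in line 1, and 6.22 and 6.29 in line 2. Replicate 2 was the lowest wild-type array here, but the other 2 were also below all mutant arrays. Its rise was 3.69 ± 0.40 (adjusted p = 0.00906) and 3.26 without replicate 2 (adjusted p = 0.0150).

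AT4G15660 had a higher wild-type level, at 5.22, 3.74 and 5.49 in wild type, 7.96 and 6.94 in line 1, and 7.23 and 6.88 in line 2. Both lines rose to about the same level, for a change of 2.43 ± 0.42 (adjusted p = 0.0278) that fell to 1.89 without wild-type replicate 2. Its call was lost when line 1 replicate 1 or line 2 replicate 1 was left out (adjusted p = 0.0675 to 0.0711). AT4G15680 read 3.27, 3.16 and 3.15 in wild type, 5.47 and 4.94 in line 1, and 3.66 and 3.62 in line 2. Line 1 was well above wild type and line 2 only just, and the mean rise of 1.23 ± 0.10 (adjusted p = 0.00272) covers changes of 2.01 and 0.45. The lines differed by 1.56 ± 0.13 (adjusted p = 0.00511). Whether signal is shared between these closely related neighbours was not tested, so the values of single members are uncertain.

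The fifth held rise, AT1G03020, lies elsewhere in the genome and read 2.34, 2.09 and 2.36 in wild type, 5.26 and 5.23 in line 1, and 3.64 and 2.96 in line 2. It rose by 2.00 ± 0.17 (adjusted p = 0.00314), and line 1 exceeded line 2 by 1.94 ± 0.22 (adjusted p = 0.0379). AT3G62930 rose by 1.25 ± 0.25 (adjusted p = 0.0351), but not past the threshold without wild-type replicate 2 (1.12, adjusted p = 0.103). Its call was also lost when either line 1 array or wild-type replicate 3 was left out (adjusted p = 0.0530 to 0.0889). From such low levels the measured size depends on the scale: with 16 added to each intensity before the log, the rise was 2.02 at AT4G15700, 2.39 at AT4G15690, 0.63 at AT4G15680 and 0.85 at AT1G03020, all 4 still called. With 1 value per line, 3 of these were not called: AT4G15690 (adjusted p = 0.0691), AT4G15680 (adjusted p = 0.147) and AT1G03020 (adjusted p = 0.115). The limit is not special to this family: 60 of the 64 called genes followed across settings lost their call with 1 value per line.

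The family did not move as one. AT3G62960 had a change of -2.59 ± 0.67 that was not called (adjusted p = 0.0513), while AT3G62950 had 1.19 ± 0.46 (adjusted p = 0.122). ROXY1 and ROXY2, which act in flower development, stayed at the floor, with changes of 0.06 ± 0.03 and 0.01 ± 0.02. GRX480, induced by salicylic acid, had a change of -0.20 ± 0.70 (adjusted p = 0.878) with no settled sign, between -0.46 and 0.30 across settings.

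AT4G33040 and AT5G11930 are also CC-type glutaredoxin genes that the list lacks, noticed after their values were seen, and both fell. AT4G33040 read 8.81, 10.71 and 8.89 in wild type, 5.36 and 6.58 in line 1, and 7.49 and 8.18 in line 2. The mutant and wild-type arrays did not overlap, with line 1 lowest and wild-type replicate 2 highest. The change was -2.57 ± 0.48 (adjusted p = 0.0320) and -1.95 without replicate 2 (adjusted p = 0.0487); it was lost when line 1 replicate 1, line 2 replicate 1 or wild-type replicate 3 was left out (adjusted p = 0.0533 to 0.0855). AT5G11930 read 5.41, 8.04 and 6.03 in wild type, 3.22 and 3.59 in line 1, and 4.45 and 5.35 in line 2. The gap between line 2 replicate 2 and wild-type replicate 1 was small. The change of -2.34 ± 0.53 (adjusted p = 0.0423) was -1.56 without replicate 2 (adjusted p = 0.0480), and the call was lost when either line 1 array, line 2 replicate 1 or wild-type replicate 3 was left out (adjusted p = 0.0709 to 0.116).

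None of the 5 listed genes with a held rise was called between aox1a and wild type under MLD. AT4G15700 had a change of 0.02 ± 0.20 there, AT4G15690 of 0.35 ± 0.40, AT4G15680 of 0.01 ± 0.10, AT4G15660 of -0.18 ± 0.42 and AT1G03020 of -0.10 ± 0.17. In the untreated double mutant against its own wild type the changes of the same genes, in that order, were 0.00 ± 0.48, 0.09 ± 0.50, -0.07 ± 0.40, -0.24 ± 0.49 and -0.07 ± 0.75, none of them called. AT5G18600 and AT1G06830, not called untreated, were lower in aox1a under MLD (-1.94 ± 0.34, adjusted p = 0.00915, and -1.60 ± 0.36, adjusted p = 0.0225).

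**Figure D3:**
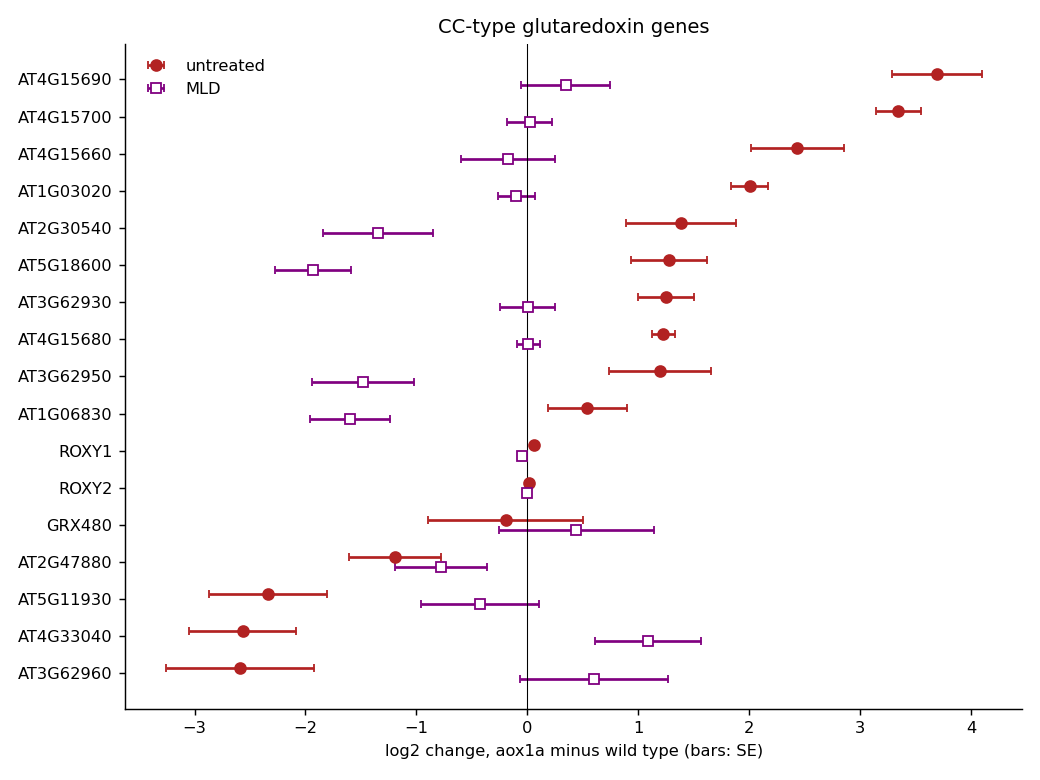
Log2 change of aox1a against wild type (x axis, bars are SE) for the 15 listed CC-type glutaredoxin genes and for AT4G33040 and AT5G11930, untreated (filled circles) and under MLD (open squares). The 4 chromosome 4 neighbours and AT1G03020 lie at 1.23 or more untreated and near 0 under MLD.

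The largest held rise was at AT1G49500, a gene with no symbol in the gene table. It read 7.77, 4.68 and 6.61 in wild-type replicates 1, 2 and 3, 11.53 and 10.85 in line 1, and 10.90 and 9.81 in line 2. The wild-type arrays spread over several log2 units, with replicate 2 lowest, and every mutant array was above all 3. The rise of 4.42 ± 0.65 (adjusted p = 0.0202) became 3.58 without replicate 2 (adjusted p = 0.0229), and the call was lost without line 2 replicate 1 (adjusted p = 0.0558). AT5G19120, also without a symbol, read 4.43, 2.40 and 3.45 in wild type, 7.50 and 7.55 in line 1, and 7.01 and 5.71 in line 2. Line 1 was tight and high, and line 2 less so. Its rise of 3.52 ± 0.44 (adjusted p = 0.0123) was 3.00 without replicate 2 and was called with any 1 array left out (adjusted p = 0.00355 to 0.0431).

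PDF1.2b, a plant defensin of the jasmonate and ethylene defence response, rose in both lines. PDF1.2b read 3.40, 3.50 and 3.50 in wild-type replicates 1, 2 and 3, 6.53 and 7.55 in line 1, and 5.77 and 4.45 in line 2. The wild-type arrays lay within a narrow band that replicate 2 shared, line 2 lay above it and line 1 higher still. The rise was 2.61 ± 0.30 (adjusted p = 0.00985), 2.63 without replicate 2 (adjusted p = 0.0254) and 1.70 with 16 added to each intensity. PDF1.2, its close paralogue, read 6.22, 5.45 and 6.19 in wild type, 9.01 and 9.88 in line 1, and 8.89 and 7.44 in line 2. The groups did not overlap, and the rise of 2.85 ± 0.49 (adjusted p = 0.0276) did not stay past the threshold without replicate 2 (2.60, adjusted p = 0.0762), and was lost when line 1 replicate 2, line 2 replicate 1 or wild-type replicate 3 was left out (adjusted p = 0.0503 to 0.0645). The probe set of PDF1.2b is of a type that can read related transcripts, so signal from one paralogue may enter the other.

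The other measured genes of the jasmonate and ethylene list were not called: THI2.1, a thionin, had a change of 0.37 ± 0.24 and ORA47, a jasmonate-responsive transcription factor, of 0.06 ± 0.58. THI2.1 read 2.41, 2.35 and 2.40 in wild type, 2.39 and 2.42 in line 1, and 3.76 and 2.43 in line 2. Its mean change rests on line 2 replicate 1 alone. Of 23 listed genes only 4 had a single-gene probe set, and the counts were 2 higher and 0 lower, beside 3.78% and 2.91% of all single genes.

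UGT76C2, which glucosylates cytokinins, read 4.08, 2.56 and 4.11 in wild type, 5.62 and 4.99 in line 1, and 5.20 and 5.01 in line 2. The mutant arrays were close together and above all wild-type arrays, of which replicate 2 was lowest by far. The rise of 1.62 ± 0.34 (adjusted p = 0.0376) was 1.11 without replicate 2 (adjusted p = 0.0243) and was lost when either line 1 array, line 2 replicate 1 or wild-type replicate 3 was left out (adjusted p = 0.0530 to 0.0998). The cytokinin response regulators ARR15 and RR16 were not called, with changes of 0.55 ± 0.62 and -1.01 ± 0.30.

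TAPX, the thylakoid ascorbate peroxidase that removes hydrogen peroxide in chloroplasts, read 9.84, 9.07 and 9.83 in wild type, 10.61 and 10.48 in line 1, and 10.46 and 10.32 in line 2. It was higher on every mutant array, by 0.88 ± 0.18 (adjusted p = 0.0356) and by 0.63 without replicate 2 (adjusted p = 0.0379), and was lost when either line 1 array, line 2 replicate 1 or wild-type replicate 3 was left out (adjusted p = 0.0549 to 0.0943). The stromal enzyme SAPX had a change of 0.51 ± 0.14 (adjusted p = 0.0562) and the mitochondrial peroxiredoxin PRXIIF of 0.11 ± 0.08 (adjusted p = 0.353), neither called. PDF1A, an organellar peptide deformylase, rose by 1.09 ± 0.17 (adjusted p = 0.0233) from 6.58 ± 0.44 (SD, n = 3) to 7.82 ± 0.03 in line 1 and 7.51 ± 0.22 in line 2 (SD, n = 2 each), and was 0.84 without replicate 2. PDF1A was lost when line 1 replicate 1 or line 2 replicate 1 was left out (adjusted p = 0.0515 to 0.0635). RALFL22, a small peptide of the rapid alkalinisation factor family, rose by 0.84 ± 0.12 (adjusted p = 0.0202).

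Further held rises with a gene symbol started from low levels. ICU2, the catalytic subunit of DNA polymerase alpha, rose by 1.12 ± 0.24 from 3.39 ± 0.65 (adjusted p = 0.0395), PSF2, a subunit of the GINS replication complex, by 0.71 ± 0.09 from 2.96 ± 0.08 (adjusted p = 0.0137), and UBC20, a ubiquitin-conjugating enzyme, by 1.21 ± 0.20 from 3.62 ± 0.41 (adjusted p = 0.0269; SD, n = 3). No marker of dividing cells in the fixed list had a single-gene probe set, and these genes were picked out after the held set was known. ICU2 was lost when either line 1 array, line 2 replicate 1 or wild-type replicate 3 was left out (adjusted p = 0.0659 to 0.101), and UBC20 when line 1 replicate 1, line 2 replicate 1 or wild-type replicate 3 was left out (adjusted p = 0.0533 to 0.0645). PSF2 was called with any 1 array left out. Without wild-type replicate 2 the rises were 0.76 at ICU2, 0.67 at PSF2 and 0.98 at UBC20.

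Further held rises at loci without a symbol included AT1G23205 (2.45 ± 0.27), AT4G28310 (2.04 ± 0.42), AT2G48030 (1.49 ± 0.19), AT3G20270 (1.49 ± 0.23), AT3G54750 (1.34 ± 0.13) and AT2G37470 (1.30 ± 0.18). Without wild-type replicate 2 these rises were, in the same order, 2.27, 1.39, 1.28, 1.19, 1.23 and 1.08. AT1G23205, AT2G48030, AT2G37470 and AT3G54750 were called with any 1 array left out. AT4G28310 was lost when either line 1 array, line 2 replicate 1 or wild-type replicate 3 was left out (adjusted p = 0.0597 to 0.0995), and AT3G20270 when line 1 replicate 1, line 2 replicate 1 or wild-type replicate 3 was left out (adjusted p = 0.0514 to 0.0632). AT3G51280, named because it is 1 of the 2 probe sets (0.00879%) called in each line alone with and without replicate 2, rose at the floor from 2.41 ± 0.08 (SD, n = 3) by 0.63 ± 0.04 (adjusted p = 0.000593), or by 0.19 with 16 added to each intensity; the other is AT4G15700.

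**Figure D4:**
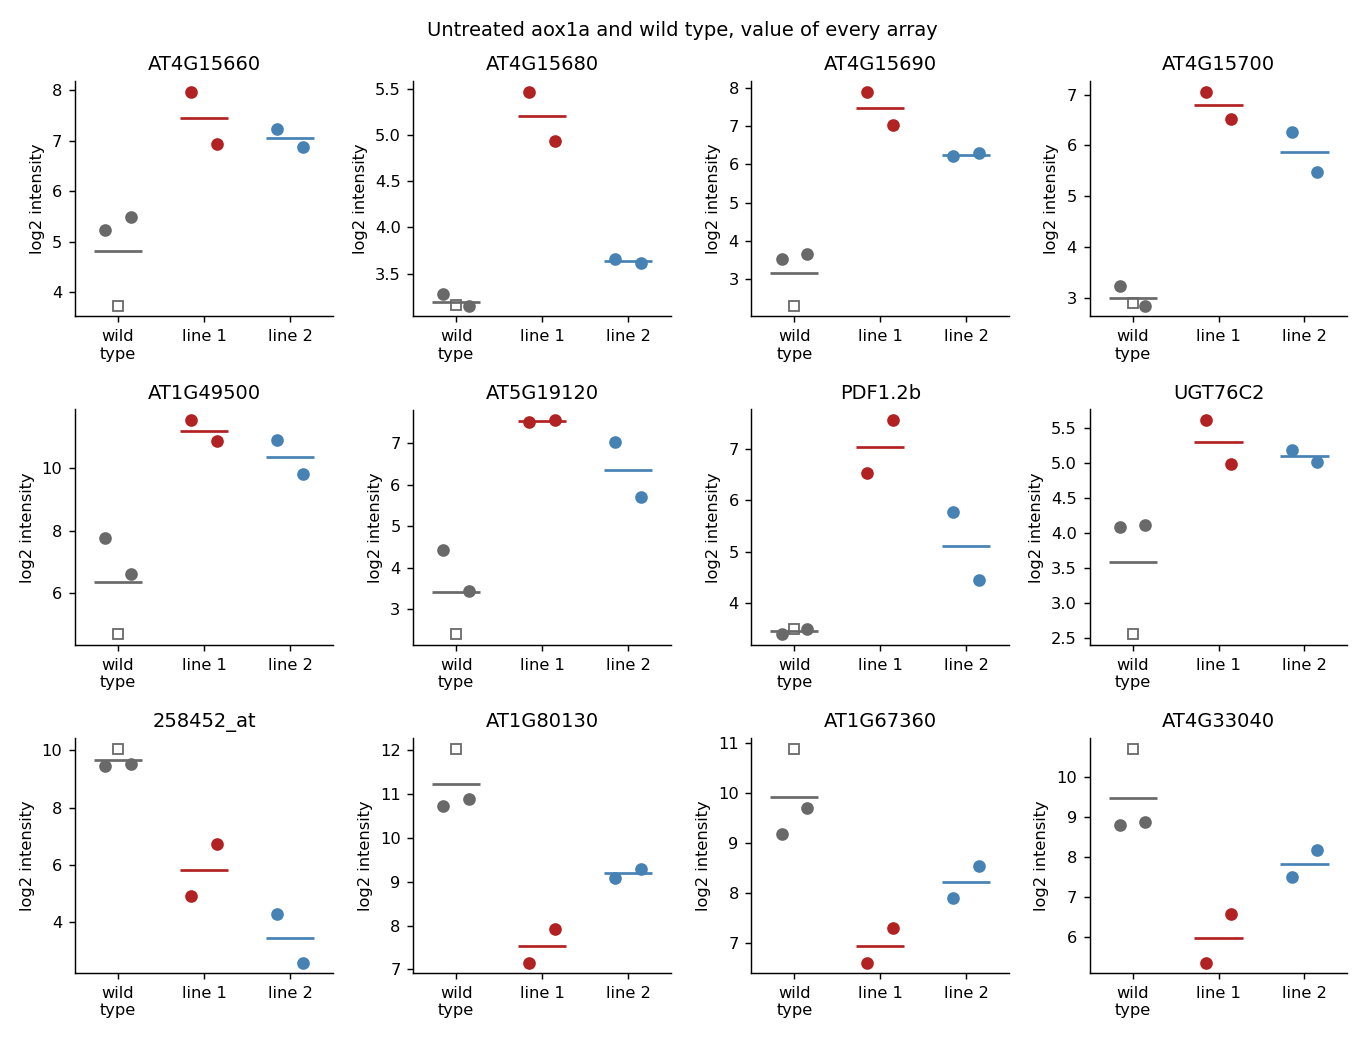
Log2 intensity of every untreated array (points) with group means (lines) for 12 probe sets, by group: wild type (grey, n = 3), line 1 (red, n = 2) and line 2 (blue, n = 2). The open square is wild-type replicate 2; each panel has its own axis. In all 12 panels the mutant and wild-type arrays do not overlap, and replicate 2 is the wild-type array farthest from the mutants in most but not in AT4G15680, AT4G15700 or PDF1.2b.

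Among named genes the largest held fall was at AT1G80130, which read 10.73, 12.03 and 10.88 in wild-type replicates 1, 2 and 3, 7.15 and 7.92 in line 1, and 9.09 and 9.28 in line 2. Line 1 was lowest, line 2 intermediate and wild type highest, with no overlap. The change was -2.85 ± 0.32 (adjusted p = 0.00906) and -2.44 without replicate 2 (adjusted p = 0.00994), and it was called with any 1 array left out. AT1G67360 read 9.18, 10.88 and 9.69 in wild type, 6.62 and 7.30 in line 1, and 7.90 and 8.54 in line 2. It had the same order of groups and fell by 2.33 ± 0.37 (adjusted p = 0.0228), or -1.85 without replicate 2. The call was lost when line 1 replicate 1, line 2 replicate 1 or wild-type replicate 3 was left out (adjusted p = 0.0514 to 0.0635).

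BETA-VPE, a vacuolar processing enzyme that matures storage proteins in seeds, read 6.58, 7.70 and 7.17 in wild type, 5.14 and 4.81 in line 1, and 5.78 and 6.28 in line 2. The groups did not overlap, with a change of -1.65 ± 0.25 (adjusted p = 0.0211) that was -1.37 without replicate 2 and was lost when line 2 replicate 1 or wild-type replicate 3 was left out (adjusted p = 0.0515 to 0.0566). AT1G61380, an S-domain receptor kinase that senses bacterial 3-hydroxy fatty acids, fell by 1.01 ± 0.18 (adjusted p = 0.0278), and TMT2, a tonoplast sugar transporter, by 0.79 ± 0.10 (adjusted p = 0.0137). TMT2 read 8.73, 9.11 and 8.94 in wild type, 8.13 and 8.10 in line 1, and 8.00 and 8.33 in line 2. AT1G61380 was lost when line 1 replicate 1, line 2 replicate 1 or wild-type replicate 3 was left out (adjusted p = 0.0536 to 0.0721). For TMT2 the lines lay at the same level, and it was called with any 1 array left out. Without wild-type replicate 2 the changes were -0.78 at AT1G61380 and -0.70 at TMT2.

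Smaller held falls were seen for PRXR1, a class III peroxidase with high signal (-0.68 ± 0.10 from 14.17 ± 0.18, SD, n = 3), CHC1, a chromatin remodelling subunit (-0.55 ± 0.09), FRA3, an inositol phosphatase of secondary wall formation (-0.67 ± 0.14), POL, a protein phosphatase of meristem signalling (-0.83 ± 0.16), and PRA1.B1, a prenylated Rab acceptor (-0.35 ± 0.05). Their adjusted p-values lay between 0.0161 and 0.0358. Without wild-type replicate 2 the changes were, in the same order, -0.58, -0.45, -0.47, -0.62 and -0.31. PRXR1 and PRA1.B1 were called with any 1 array left out, POL was lost when either line 1 array, line 2 replicate 1 or wild-type replicate 3 was left out (adjusted p = 0.0562 to 0.0901), FRA3 when either line 1 array, line 2 replicate 1 or wild-type replicate 3 was left out (adjusted p = 0.0516 to 0.0912) and CHC1 when line 1 replicate 1, line 2 replicate 1 or wild-type replicate 3 was left out (adjusted p = 0.0514 to 0.0585). Of the loci without a symbol, AT1G73700 (-1.49 ± 0.21), AT4G29790 (-1.35 ± 0.15), AT5G65750 (-1.47 ± 0.20) and AT5G51770 (-1.15 ± 0.16) fell and were called with any 1 array left out.

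The mitochondrial lists held few called genes, but 6.69% of all single genes were called, and lists this short would hold few at that share. Of 25 listed genes of the mitochondrial stress response, 11 were measured. None of the 11 was called (limma, smallest adjusted p 0.208). None had an unadjusted p under 0.05, where 7146 of all 22746 probe sets did (31.4%). The median change of the 11 was 0.04. AT3G10020 had 0.42 ± 0.28, AT2G21640 0.15 ± 0.32, and AT5G09570 0.24 ± 0.23. AT2G21640 read 5.76, 5.62 and 5.34 in wild type, 5.27 and 5.75 in line 1, and 6.13 and 5.72 in line 2. Wild type and mutant overlapped. Of the 11, several lay near the floor, such as NDB4 at 2.00 ± 0.02 and AT5G51440 at 2.46 ± 0.03 in wild type (SD, n = 3), where a fall could not be seen.

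Of 13 listed genes of alternative respiration, 5 were measured, which here are the type II NAD(P)H dehydrogenases that bypass complex I. None of the 5 was called and 1 had an unadjusted p under 0.05. NDB2, an external NADH dehydrogenase that is often co-expressed with AOX1A, read 6.11, 6.42 and 5.95 in wild type, 5.66 and 5.90 in line 1, and 5.66 and 6.06 in line 2. Its change of -0.34 ± 0.17 (adjusted p = 0.208) was within the spread between arrays. NDB1 had 0.70 ± 0.24 (adjusted p = 0.0925, 0.270 without replicate 2), and NDC1, which is also found in chloroplasts, -0.04 ± 0.27 (adjusted p = 0.936), between -0.21 and 0.13 across settings.

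Of 18 listed nuclear genes for complex IV, the end of the cytochrome pathway, 9 were measured. Of the 9, 1 was called, beside 6.69% of all single genes. AT5G57815, a subunit gene, read 9.70, 10.40 and 9.85 in wild type, 9.21 and 9.17 in line 1, and 9.39 and 9.61 in line 2. All mutant arrays were below the wild-type arrays, and the change of -0.64 ± 0.15 (adjusted p = 0.0449) did not stay past the threshold without replicate 2 (-0.43, adjusted p = 0.0726), and the call was lost when either line 1 array, line 2 replicate 1 or wild-type replicate 3 was left out (adjusted p = 0.0715 to 0.120). AT5G61310 had the opposite sign, 0.61 ± 0.23 (adjusted p = 0.116). None of the 16 mitochondrially encoded genes (median -0.36, and -0.16 without replicate 2, smallest adjusted p 0.0530, 5 with an unadjusted p under 0.05) or of the 69 plastid-encoded genes (median 0.00, smallest adjusted p 0.0625, 5 with an unadjusted p under 0.05) was called by limma.

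The 6 measured genes of chlorophyll synthesis all had a positive change, with a median of 0.79 (0.40 without replicate 2), and none was called, the smallest adjusted p being 0.0585 with 4 at an unadjusted p under 0.05, as 31.4% of all probe sets had. Wild-type replicate 2 read low for this list, with a median of -1.10 against the mean of replicates 1 and 3. Of these genes, CHLI2, a subunit of magnesium chelatase, had 1.30 ± 0.41 and HEMB1, 5-aminolevulinate dehydratase, 0.64 ± 0.17. The 7 nuclear photosystem and antenna genes had a median of 0.18 with none called and 3 at an unadjusted p under 0.05.

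In the drought and abscisic acid list 1 of 5 measured genes was called. HIS1-3, a linker histone induced by drought, read 7.44, 9.17 and 7.84 in wild type, 4.50 and 5.67 in line 1, and 4.55 and 6.23 in line 2. It was lower on all mutant arrays, with a change of -2.91 ± 0.58 (adjusted p = 0.0342), but not past the threshold without replicate 2 (-2.40, adjusted p = 0.0944), and the call was lost when line 1 replicate 1, line 2 replicate 1 or wild-type replicate 3 was left out (adjusted p = 0.0652 to 0.0875). COR47, a dehydrin, had -1.17 ± 0.33 (adjusted p = 0.0613). STZ, a zinc finger regulator of the rapid stress list, had -2.51 ± 0.72 (adjusted p = 0.0644), on a wild-type level of 6.30 ± 1.41 (SD, n = 3), and none of the 7 in that list was called, with 2 at an unadjusted p under 0.05. None of 5 flavonoid and anthocyanin genes was called, and none had an unadjusted p under 0.05.

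Larger enzyme families were near the background of 3.78% of single genes higher and 2.91% lower. Among 14 glutathione transferases 1 was higher, GSTU23 (0.48 ± 0.10, adjusted p = 0.109 without replicate 2). Among 35 cell wall genes 1 was higher, the expansin-like EXLA1 (1.41 ± 0.31, adjusted p = 0.0877 without replicate 2). Among 47 UDP-glycosyltransferases 1 was higher, UGT76C2, and 2 were lower, UGT72E1 (-1.17 ± 0.27) and UGT85A5 (-1.26 ± 0.25); both falls were not called without replicate 2 (adjusted p = 0.115 and 0.0988). None of 26 cytochromes P450 was called, with 7 at an unadjusted p under 0.05.

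Tested directly, 8 probe sets differed between the lines (0.0352%), 7 higher in line 1 and 1 lower. Of the 1557 called probe sets, 1555 had the same sign in both lines, beside 18875 of all 22746. Both lines were set against the same wild-type arrays and calls were made on their average, so this count is a description. The change was larger in line 1 for 1161 of the 1557, with median absolute changes of 0.72 and 0.57, and for 13549 of all 22746, with medians of 0.15 and 0.13. Among the 174 held ones line 1 was larger in 156, with medians of 1.17 and 0.84. Of the 8 that differed, the 3 with a single gene are AT4G15680, AT1G03020 and AT1G60060, which read 3.10, 3.10 and 3.10 in wild type, 3.60 and 3.67 in line 1, and 3.06 and 3.11 in line 2. In AT1G60060 line 1 alone left the wild-type level, by 0.55 ± 0.04 against line 2 (adjusted p = 0.00437). All its values lie near the floor, and its change averaged over lines, 0.26, was not called by limma with all 40 arrays (adjusted p = 0.435).

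Probe set 257911_at, which has no gene in the table and was chosen after its values were seen, changed in line 2. It read 10.39, 10.40 and 10.35 in wild-type replicates 1, 2 and 3, 10.38 and 10.27 in line 1, and 8.73 and 8.40 in line 2. Line 1 lay at the wild-type level and line 2 well below it, a difference of 1.76 ± 0.17 between the lines (adjusted p = 0.0112). The untreated double mutant also read lower than its own wild type there (-1.74 ± 0.12, adjusted p = 6.82e-11). Probe set 252415_at, also without a gene and chosen the same way, did the reverse and read 2.34, 2.30 and 2.28 in wild type, 3.34 and 3.40 in line 1, and 2.25 and 2.35 in line 2. Line 1 alone was raised, by 1.07 ± 0.04 over line 2 (adjusted p = 1.11e-05). These levels lie near the floor, where a rise has no exact size. The change of 252415_at averaged over lines was 0.53, and as low as 0.16 across settings. It was not called by limma with all 40 arrays (adjusted p = 0.483).

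Most of the called probe sets did not stay called without wild-type replicate 2: 1373 of 1557 (88.2%) were lost, all with the same sign, and 24 were gained. Such a loss was not particular to replicate 2, without which 208 were called. Leaving out wild-type replicate 3 gave 180 calls, line 2 replicate 1 gave 156, and line 1 replicates 1 and 2 gave 267 and 587. Leaving out wild-type replicate 1 or line 2 replicate 2 raised the count, to 2500 and 2361. The largest lost rises among named genes were AT3G16670 (3.27 ± 0.62, 2.55 without replicate 2), PDF1.2, AT2G36885 (2.37 ± 0.58, 1.52), AT5G05250 (2.18 ± 0.51, 1.56) and AT3G48490 (2.16 ± 0.50, 1.44). The largest lost falls were HIS1-3, AT5G59050 (-2.55 ± 0.46, -2.04), AT2G15020 (-2.43 ± 0.51, -2.03), AT1G55760 (-2.36 ± 0.59, -1.54) and AT2G17710 (-2.31 ± 0.50, -1.76). Their adjusted p-values without replicate 2 lay between 0.0527 and 0.107.

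Replicate 2 deviated most from the mean of replicates 1 and 3 at AT5G03350 (-5.84), AT3G08030 (-4.26), AT1G09750 (-4.00), AT4G18970 (-3.84) and the expansin EXPB1 (-3.66) on the low side. On the high side these were AT5G39520 (5.07), AT5G38710 (3.33), AT5G58570 (2.88), AT5G10770 (2.60) and AT1G55760 (2.47). The rpoTmp-set wild type, on other arrays, raised 436 probe sets by over 1 log2 unit under MLD, and replicate 2 read above replicates 1 and 3 at 347 of them (79.6%). It read below at 351 of the 384 that fell by as much (91.4%). Over all probe sets it read above at 11515 (50.6%).

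The held probe sets were chosen from the untreated aox1a-set arrays, although the spread came from all 14. In comparisons of other arrays, more of them were called in the opposite sense than in the same sense. Of the 94 held rises, 2 were called higher and 14 lower between aox1a and wild type under MLD, against 6.26% and 6.14% of all probe sets. Of the 80 held falls, 21 were called higher and 2 lower. In the untreated double mutant against its own wild type, 8 of the 94 were higher and 33 lower, and 22 of the 80 were higher and 2 lower (background 9.47% higher, 9.26% lower). In untreated rpoTmp, 0 of the 94 were higher and 4 lower, and 9 of the 80 were higher and 1 lower (background 2.28% and 1.84%); age and genotype cannot be told apart there, since the rpoTmp plants are given as 5 weeks old and their wild type as 4.

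The wild-type response to MLD in the double set, again on other arrays, lowered 66 of the 94 held rises and raised 6 of them, and raised 49 of the 80 held falls and lowered 7 (background 17.5% higher, 24.4% lower). In that set the untreated wild type is given as 5 weeks old and the MLD wild type as 4, so age and MLD cannot be told apart. In the rpoTmp set, where both were 4 weeks old, it lowered 11 and raised 1 of the 94, and raised 14 and lowered 2 of the 80 (background 3.47% higher, 3.65% lower). Within each of those sets the mutant comparison and the wild-type response share the untreated wild-type arrays, so their counts are not independent. Over all probe sets, the aox1a effect under MLD differed from the untreated effect at 5093 (22.4%). Genes called in opposite directions include TMT2, -0.79 ± 0.10 untreated and 1.09 ± 0.10 under MLD (adjusted p = 0.000731), TAPX, 0.88 ± 0.18 and -1.26 ± 0.18 (adjusted p = 0.00376), and BETA-VPE, -1.65 ± 0.25 and 1.23 ± 0.25 (adjusted p = 0.0142). The position of wild-type replicate 2 toward the MLD arrays moves with this pattern, and its part in the pattern was not tested.

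**Figure D5:**
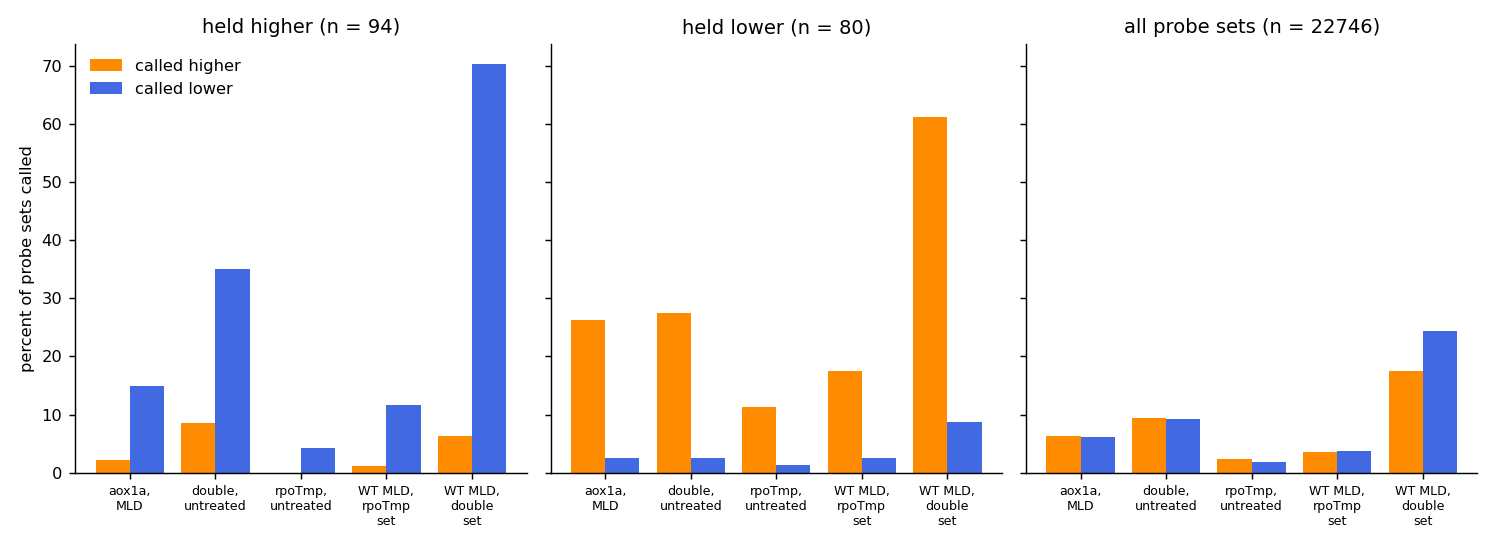
Percent of the 94 held rises (left), of the 80 held falls (middle) and of all 22746 probe sets (right) that were called higher (orange) or lower (blue) in 5 comparisons: aox1a under MLD, the untreated double mutant, untreated rpoTmp, and the wild-type (WT) response to MLD in the rpoTmp and double sets. In each of the 5, more held rises were called lower than higher, and more held falls higher than lower; by the labels, ages also differ within the untreated rpoTmp comparison and within the double-set MLD response.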

How the data were processed

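Labelled cRNA from leaves was hybridised to Affymetrix 3′ arrays. The authors deposited intensity values on a linear scale, 1 per probe set. The submitters' processing notes name GCRMA, MAS5, Partek 6.5 and the Affymetrix Expression Console; their roles were not given in the sources used here. The lowest value was 2.66, and near this floor a fall is hidden and a rise has no exact size. The number of arrays limits the precision, and intensities carry no read depth.

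The plan assumed values on the log2 scale, so log2 was taken with no pseudocount. Control probe sets (64) did not enter the tests. Of the 22746 others, the platform annotation pairs 13513 with 1 gene, 503 with several and 8730 with none, and identifiers of 13436 were found in the TAIR10.1 gene table. That table was used for names and for which genes adjoin. Where a gene had several probe sets, the one with the highest mean over all 40 arrays stood for it.

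The 14 arrays of the aox1a set were fitted by limma 3.58.1 (R 4.3.3) as 6 group means (8 residual and 0.938 prior degrees of freedom), and p-values were adjusted by Benjamini-Hochberg over all probe sets. Differences from the double mutant came from a fit of all 40 arrays. Tested on simulated data for this comparison (22746 probe sets, 50 changed at each size), the fit recovered 44% of changes of 0.5 log2 units, 62% of 1, 92% of 2 and 98% of 4, with 12 false calls. The simulated noise was normal and independent, with no difference between lines and no deviant array. These rates therefore check the fit and are not error rates of the real arrays.

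Genes were named by rule: up to 15 held rises and 15 held falls whose higher group averaged 5 or more in log2, without overlap, and the largest change in the smaller-changing line; held members of gene lists; line differences; and the 5 genes each way most changed among calls lost without wild-type replicate 2 or most deviant in it. The text prints a selection of these, and held genes with a symbol were added after their values were seen. Members and lists were chosen with earlier results of these data known. Alternatives varied the arrays, weights, prior, filter, pseudocount, normalization, replicate block and treatment of lines.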

Additional observations from a re-analysis of the deposited data

Results flagged for a closer look

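The aox1a effect differed between MLD and untreated plants, by the interaction term of limma, for the 33 genes listed here (adjusted p = 0.00107 to 0.0431). They are a selection, and genes not listed, such as TMT2, also moved between the conditions. The effect differed at 87 of the 94 held rises and 75 of the 80 held falls, and at 5093 of all probe sets (22.4%). The effect under MLD minus the effect untreated, in log2 units, was negative for AT1G49500 (-4.99), AT5G19120 (-3.57), AT4G15690 (-3.35), AT4G15700 (-3.32), PDF1.2b (-2.74), AT4G15660 (-2.61), AT3G23080 (-2.40), AT1G23205 (-2.35), TAPX (-2.15), AT4G28310 (-2.11), AT1G03020 (-2.10), AT4G02530 (-2.06), AT3G54750 (-2.04), AT2G48030 (-1.86), UGT76C2 (-1.68), AT2G37470 (-1.55), AT4G15680 (-1.22), AT3G20270 (-1.11) and AT1G60060 (-0.31). It was positive for AT4G33040 (3.65), AT1G80130 (3.25), AT1G67360 (3.18), BETA-VPE (2.88), AT3G14067 (2.52), AT1G73700 (2.01), AT5G59700 (1.95), AT5G65750 (1.90), AT2G46620 (1.86), AT4G29790 (1.75), AT5G51770 (1.56), AT1G61380 (1.25), AT5G64550 (1.24) and AT4G00500 (1.14). These genes were named for their untreated change, and the untreated arrays enter the difference, so its sign follows in part from how they were chosen.

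Line 1 differed from line 2 in untreated plants at 3 single genes, by 1.94 at AT1G03020 (adjusted p = 0.0379), 0.55 at AT1G60060 (adjusted p = 0.00437) and 1.56 at AT4G15680 (adjusted p = 0.00511) log2 units, each higher in line 1. Wild type lay near the floor for all 3, so the sizes are not exact.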

How the results depend on the processing

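Counts of calls moved with the setting. Averaged over lines, 1557 probe sets were called, against 25 with 1 value per line, 2519 with the 4 mutant arrays as 1 group, 0 with the 7 untreated arrays alone (smallest adjusted p 0.0944; 5233 at an unadjusted p under 0.05), 3745 with all 40 arrays, 2405 with array weights and 651 after quantile normalization. With all 40 arrays line 1 gave 3321 and line 2 743; with array weights line 1 gave 2978; after quantile normalization 518. Keeping a mean log2 of at least 5 gave 1682 for line 1, 2 for line 2 and 1 between lines. A trended and robust prior gave 18 between lines. The 7 arrays alone gave 0 for each line, between lines and for held changes. Held changes numbered 174, and 392 with all 40 arrays, 513 with weights and 274 with the filter on mean log2. The difference of the aox1a effect under MLD gave 1785 with 1 value per line, against 5093.

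Leaving out each untreated array in turn gave 156 to 2500 calls averaged over lines, 177 to 1968 for line 1, 4 to 968 for line 2, 6 to 254 between lines, 7 to 743 held changes and 3306 to 5422 for the MLD difference. The fewest averaged calls came from leaving out line 2 replicate 1, the untreated array with the largest 3′ minus 5′ differences at control probe sets. Without wild-type replicate 3, 180 were called. None of the 64 called genes followed across settings changed sign in any of them, while 8 of 30 that were not called did, among them GRX480 and NDC1. The causes were not tested.

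Same-numbered samples of the groups correlated between -0.05 and 0.24 in their deviations, so the numbers were not taken as pairs. With the replicate number as a block, 1426 probe sets were called averaged over lines, 76 for line 2, 4 between lines and 44 held.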
